A study of Homo sapiens with 4 samples.

Results

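The transcripts of 10 Wnt receptor genes were followed in TPC1, an established papillary thyroid carcinoma line that carries the CCDC6-RET fusion. The genes were fixed by symbol, with earlier results of these data known. All 10 were found among the 20372 genes of the deposited table. They are the R-spondin receptors LGR4 and LGR5, the Frizzled receptors FZD1, FZD2, FZD6, FZD7 and FZD8, the co-receptors LRP5 and LRP6, and the receptor tyrosine kinase family gene ROR1. The treated cells received the selective RET inhibitor BLU6864 together with the FGFR inhibitor BGJ398 for 24 h (RETi + FGFRi, 2 libraries), and they were set against cells given BLU6864 only for the same time (RETi, 2 libraries). Both groups were thus RET-inhibited, and a vehicle or BGJ398-only group was not analysed here. Each inhibitor is labelled 100 µM, but the published methods give nanomolar amounts, so the dose remains uncertain. All values come from bulk RNA of a single line, in which fewer expressing cells and less RNA per cell cannot be told apart.

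Frizzled proteins are the membrane receptors to which Wnt ligands bind. Together with LRP5 or LRP6 they pass the signal through Dishevelled and keep β-catenin from being degraded, so that it can act with TCF/LEF factors on its target genes. LGR4 and LGR5 bind R-spondins, which hold back the ubiquitin ligases ZNRF3 and RNF43 that otherwise remove Frizzled from the cell surface. ROR1 responds to WNT5A in β-catenin-independent signaling. LGR5 is best known as a marker of adult stem cells in the gut.

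The libraries held 24695040 to 27457040 reads assigned to genes, and 12794 genes passed the filter on low counts. Libraries of a group differed by more than sampling noise, with a chi-square statistic of 7.91 to 14.0 per degree of freedom within groups against 42.7 to 62.9 between groups, and were kept apart. The labels do not tell whether the replicates were separate cultures, so each p-value reflects library-to-library variation that could be technical. The thyroid factor gene PAX8 had 18168 to 21660 reads in every library, whereas NKX2-1 had 0 reads, and TSHR had at most 1 read. Between these, FOXE1 had 345 to 556 reads and TG had 98 to 149 reads. EPCAM and CDH1 had at most 3 reads. Summed over the 6 epithelial markers the level was 85.6 and 96.1 CPM (reads scaled to library size, TMM-adjusted) in the RETi + FGFRi libraries, against 125 and 125 CPM in the RETi libraries. KRT7, KRT8 and KRT18 fell in this list (log2 fold changes -0.68, -0.28 and -0.72), KRT19 did not pass (0.26, adjusted p = 0.46, edgeR), and the part of these changes in the receptor results was not tested. The thyroid sum was 805 and 708 CPM after RETi + FGFRi and 764 and 812 CPM after RETi. Sums of fibroblast, endothelial and leukocyte markers stayed at or below 10.9 CPM in every library. COL3A1 had 0 reads, but COL1A1 had 52 to 95 reads and PDGFRB had 95 to 138 reads. The fibroblast marker LUM rose, with 100 and 101 reads after RETi + FGFRi against 71 and 66 reads after RETi (log2 fold change 0.64, adjusted p = 0.027, edgeR), and its part in the receptor results was not tested either. The leukocyte gene PTPRC was at 0, 0, 3 and 0 reads in RETi + FGFRi replicates 1 and 2 and RETi replicates 1 and 2. CD14, in the same list, was at 76, 62, 85 and 91 reads in these libraries.

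Transcripts of 6 of the 10 receptors fell after RETi + FGFRi, those of LGR5, FZD1, FZD2, FZD7, FZD8 and ROR1. None rose (0 also at an unadjusted p under 0.05, in edgeR and in DESeq2), and LGR4, FZD6, LRP5 and LRP6 did not pass the test (edgeR quasi-likelihood test, adjusted p under 0.05). Among all tested genes 11.3% were lower and 12.8% were higher by the same rule. The receptors were chosen with earlier results of these data known, so comparisons with all tested genes are descriptions, not tests. The median log2 fold change was -0.37 over the 10 receptors and 0.00043 over all tested genes. With a log2 fold change below -0.5 and an unadjusted p under 0.01 as the limits, 4 of the 10 receptors were lower (LGR5, FZD1, FZD8 and ROR1), against 3.03% of all tested genes. Both RETi + FGFRi libraries lay below both RETi libraries for 7 receptors and above them for 1, where 33.4% and 31.7% of all tested genes did so.

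**Figure D1:**
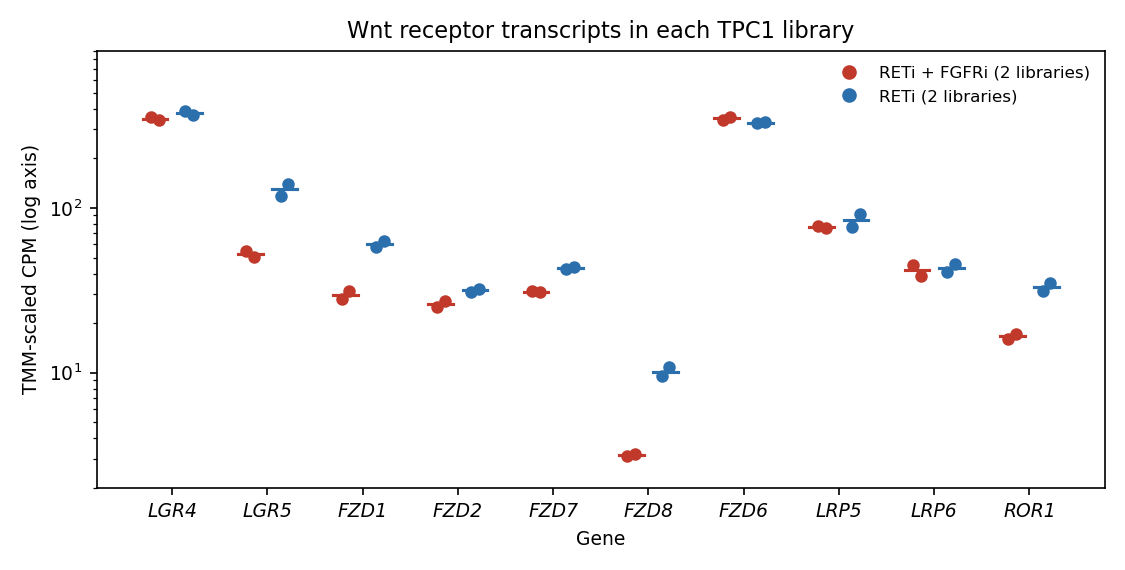
Level of each receptor transcript in the 4 libraries, in TMM-scaled CPM on a log axis; points are libraries, short bars the mean of the 2 libraries of a group. LGR5, FZD1, FZD8 and ROR1 show the widest gaps between groups, such as 52.6 CPM after RETi + FGFRi and 129 CPM after RETi for LGR5, whereas the libraries of LRP5 and LRP6 overlap.

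The R-spondin receptors differed from each other. LGR5 (ENSG00000139292, chromosome 12, 71833550 to 71980090, hg19) had 1363 and 1329 reads in the RETi + FGFRi libraries, against 3207 and 3850 reads in the RETi libraries. The groups stood well apart, and RETi replicate 2 was the highest library. In CPM this was 52.6 ± 3.24 after RETi + FGFRi and 129 ± 14.9 after RETi (SD, n = 2 each). The log2 fold change was -1.30 (SE 0.093, 95% interval -1.51 to -1.10, adjusted p = 1.4e-05, edgeR), which is 2.46-fold lower, and 0.563% of tested genes had a larger fall. The coordinates of LGR5 overlap those of TSPAN8, which had only 12 to 22 reads per library.

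LGR4 (ENSG00000205213, chromosome 11, 27387508 to 27494322), the more widely expressed R-spondin receptor, had 8818 and 9045 reads after RETi + FGFRi, against 10404 and 10059 reads after RETi. Its libraries did not overlap between groups once scaled, at 349 ± 8.98 CPM after RETi + FGFRi and 376 ± 14.1 CPM after RETi (SD, n = 2 each), but the difference was small. The log2 fold change of LGR4 was -0.11 (95% interval -0.28 to 0.065, adjusted p = 0.34, edgeR), so a fall as large as that of LGR5 lies outside this interval. Per kilobase of transcript, LGR5 reached 17.7% and 16.8% of the LGR4 level in the RETi + FGFRi libraries, against 35.3% and 43.8% in the RETi libraries. These shares are descriptions, since an exact permutation test of 2 against 2 libraries cannot go below p = 0.333.

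Among the Frizzled genes FZD8 fell the most. FZD8 (ENSG00000177283, chromosome 10, 35927177 to 35930362) had 78 and 85 reads in the RETi + FGFRi libraries, against 258 and 296 reads in the RETi libraries. It was also the receptor with the fewest reads, so its interval was the widest, with a log2 fold change of -1.68 (SE 0.15, 95% interval -2.0 to -1.35, adjusted p = 6.1e-05, edgeR). That is 3.20-fold lower, at 3.18 ± 0.054 CPM after RETi + FGFRi and 10.2 ± 0.85 CPM after RETi (SD, n = 2 each). Its closest relative, FZD5, was tested but not called, with 856 and 887 reads after RETi + FGFRi and 835 and 914 reads after RETi (log2 fold change 0.083, 95% interval -0.099 to 0.26). Per kilobase FZD8 stood at 20.1% and 21.2% of FZD5 in the RETi + FGFRi libraries, against 68.3% and 71.5% in the RETi libraries.

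FZD1, FZD2 and FZD7 form a subfamily of closely related receptors, and all 3 fell, by different amounts. FZD1 (ENSG00000157240, chromosome 7, 90893783 to 90898123) had 698 and 827 reads after RETi + FGFRi, against 1560 and 1731 reads after RETi. Its log2 fold change was -1.02 (SE 0.088, 95% interval -1.22 to -0.83, adjusted p = 5.4e-05, edgeR), 2.03-fold lower at 29.7 ± 2.26 CPM after RETi + FGFRi and 60.4 ± 3.62 CPM after RETi (SD, n = 2 each). For FZD1 the spread within each group was thus far smaller than the gap between groups.

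FZD7 (ENSG00000155760, chromosome 2, 202899310 to 202903160), a receptor studied in stem cells, had 773 and 822 reads in the RETi + FGFRi libraries, against 1155 and 1210 reads in the RETi libraries. Its log2 fold change was -0.48 (SE 0.079, 95% interval -0.65 to -0.31, adjusted p = 0.0022, edgeR), 1.40-fold lower. The intervals of FZD1 and FZD7 did not overlap. FZD2 (ENSG00000180340, chromosome 17, 42634925 to 42636907) had 625 and 721 reads after RETi + FGFRi, against 835 and 885 reads after RETi. The scaled groups did not overlap, at 26.2 ± 1.5 CPM after RETi + FGFRi and 31.6 ± 0.87 CPM after RETi (SD, n = 2 each), and the log2 fold change was -0.27 (SE 0.085, 95% interval -0.46 to -0.080, adjusted p = 0.043, edgeR). This call was the least secure of the 6. It was lost with DESeq2 (adjusted p = 0.13) and, in edgeR, without RETi + FGFRi replicate 1 (log2 fold change -0.20, adjusted p = 0.15), RETi replicate 1 (adjusted p = 0.12) or RETi replicate 2 (adjusted p = 0.21), so that 5 receptors were lower in each of these runs.

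FZD6 (ENSG00000164930, chromosome 8, 104310661 to 104345094), known in the mouse for its part in planar polarity, was the most abundant Frizzled transcript. It had 8471 and 9453 reads in the RETi + FGFRi libraries, against 8860 and 9092 reads in the RETi libraries. After scaling, FZD6 was slightly higher in both RETi + FGFRi libraries, at 349 ± 11.8 CPM, than in the RETi libraries, at 329.6 ± 1.53 CPM (SD, n = 2 each). The log2 fold change of 0.084 did not pass (95% interval -0.087 to 0.25, adjusted p = 0.46, edgeR). FZD3, which belongs to the same subfamily, had a log2 fold change of 0.067 (95% interval -0.15 to 0.29). FZD4 had 76 and 79 reads after RETi + FGFRi and 92 and 106 reads after RETi (log2 fold change -0.27, 95% interval -0.66 to 0.13), and FZD9 and FZD10 had 0 reads in all 4 libraries.

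The make-up of the Frizzled transcripts shifted with these falls. Levels were set against each other per kilobase, using the deposited span for genes of 1 exon and the GENCODE 44 canonical transcript for the others. FZD6 made up 72.2% and 72.1% of the Frizzled signal in the RETi + FGFRi libraries, against 64.0% and 62.8% in the RETi libraries. FZD1, FZD2, FZD7 and FZD8 together made up 22.3% and 22.6% after RETi + FGFRi, against 31.3% and 32.2% after RETi. The groups did not overlap in either share. The pooled genes were the Frizzled genes called lower in these same libraries. With FZD6 they make up nearly all of the signal, so both shares largely restate those falls and are not separate observations. The sum over the family was 127 and 133 CPM per kilobase after RETi + FGFRi and 138 and 141 after RETi, so most of it was FZD6 in every library. With GENCODE 44 lengths for all genes the share of FZD6 was 78.3% and 78.4% after RETi + FGFRi and 71.7% and 70.6% after RETi.

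**Figure D2:**
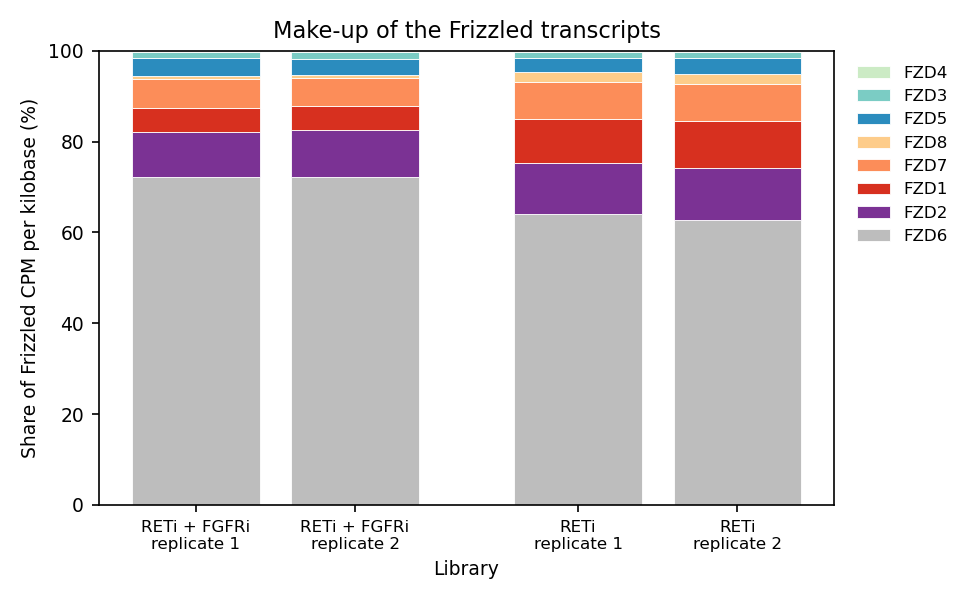
Share of each Frizzled gene in the summed Frizzled level (CPM per kilobase, percent) in each library, with the RETi + FGFRi libraries at left and the RETi libraries at right; FZD9 and FZD10 had 0 reads. FZD6 takes 72.2% and 72.1% of the bar after RETi + FGFRi and 64.0% and 62.8% after RETi, and the FZD1 and FZD8 segments are narrower after RETi + FGFRi.

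The co-receptor transcripts showed no detectable change at this depth. LRP5 (ENSG00000162337, chromosome 11, 68080077 to 68216743) had 1926 and 1987 reads after RETi + FGFRi, against 2057 and 2518 reads after RETi. RETi replicate 2 was the only library that stood apart, and the log2 fold change was -0.14 (95% interval -0.34 to 0.064, adjusted p = 0.30, edgeR). Leaving out RETi replicate 1 gave -0.26, and leaving out RETi replicate 2 gave -0.00023. LRP6 (ENSG00000070018, chromosome 12, 12268959 to 12419946) had 1117 and 1023 reads in the RETi + FGFRi libraries, against 1096 and 1264 reads in the RETi libraries, and the groups overlapped. Its log2 fold change was -0.051 (95% interval -0.26 to 0.16, adjusted p = 0.74, edgeR). The intervals of both co-receptors exclude a fall of the size seen for LGR5, FZD1, FZD8 or ROR1. LRP6 overlaps BCL2L14 in the deposited coordinates, a gene with 0 to 5 reads per library.

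ROR1 (ENSG00000185483, chromosome 1, 64239693 to 64647181), whose protein has a Frizzled-like ligand-binding domain outside the cell, had 400 and 456 reads after RETi + FGFRi, against 849 and 961 reads after RETi. The log2 fold change was -0.99 (SE 0.094, 95% interval -1.20 to -0.79, adjusted p = 0.00010, edgeR), 1.99-fold lower at 16.7 ± 0.82 CPM after RETi + FGFRi and 33.2 ± 2.46 CPM after RETi (SD, n = 2 each). Its size was close to that of FZD1, and the intervals of ROR1 and FZD1 overlapped. The other receptors with kinase-related domains were not called. ROR2 had only 26 and 24 reads after RETi + FGFRi and 16 and 17 reads after RETi (adjusted p = 0.15), RYK had a log2 fold change of 0.11, and PTK7, at 4661 and 4558 reads after RETi + FGFRi and 5483 and 5761 reads after RETi, had one of -0.20 (95% interval -0.37 to -0.027, adjusted p = 0.087, edgeR).

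**Figure D3:**
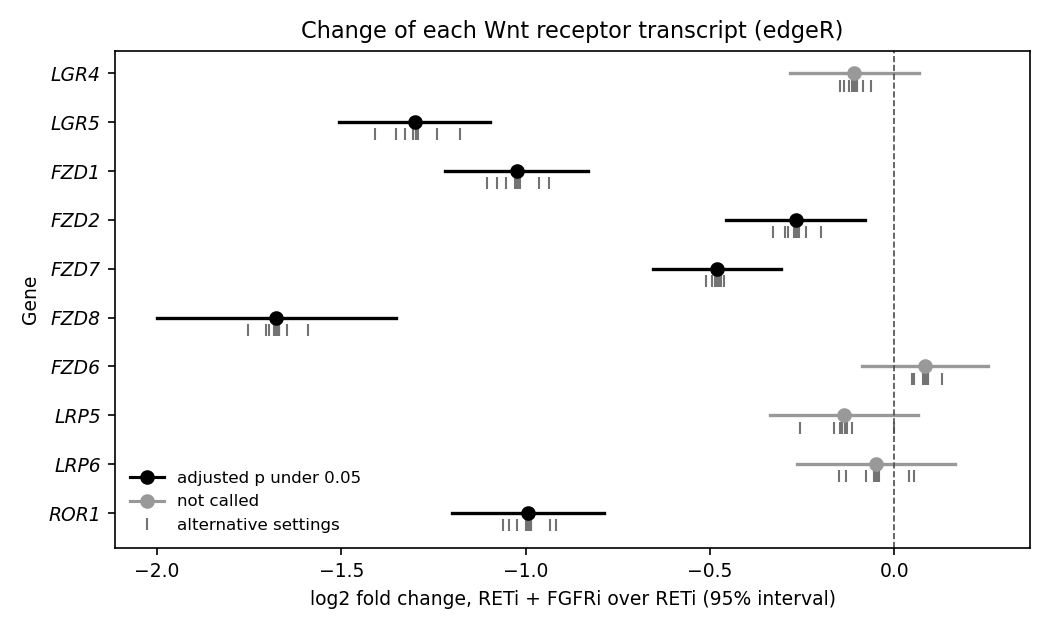
Log2 fold change of each receptor transcript, RETi + FGFRi over RETi, with its 95% interval from edgeR; black marks an adjusted p under 0.05, grey a change that was not called, and the small ticks the 12 alternative settings, including each library left out in turn. LGR5, FZD1, FZD7, FZD8 and ROR1 stay below 0 in every setting, and LRP6 crosses 0 in 2 of them.

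Ordered by level per kilobase, FZD6 and LGR4 led in both groups. In the RETi + FGFRi libraries the order went on with LRP5 (14.7 CPM per kilobase), FZD2 (13.2), LGR5 (11.5), FZD7 (8.08), FZD1 (6.84), LRP6 (4.08), ROR1 (2.85) and FZD8 (0.997). In the RETi libraries LGR5 came next at 28.2 CPM per kilobase, followed by LRP5 (16.2) and FZD2 (15.9), whose libraries overlapped, and by FZD1 (13.9), FZD7 (11.3), ROR1 (5.67), LRP6 (4.22) and FZD8 (3.19). LGR5 was thus rank 5 after RETi + FGFRi and rank 3 after RETi, and FZD8 was last in both groups. In the RETi + FGFRi libraries no neighbours in this order overlapped. The order in the middle depended on the transcript lengths, an alternative chosen after the data were seen. With GENCODE 44 lengths for all genes FZD2 stood at 6.94 CPM per kilobase after RETi + FGFRi and 8.35 after RETi, and LGR5 was rank 4 after RETi + FGFRi and rank 3 after RETi. With these lengths FZD2 overlapped FZD7, and FZD1 overlapped LRP6, in the RETi + FGFRi libraries, and FZD1 overlapped FZD2 in the RETi libraries.

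Gene structure and similarity bear on how well these reads can be assigned. FZD1, FZD2, FZD7 and FZD8 have a single exon in GENCODE 44, whereas LGR5 and LGR4 have 18 exons each, ROR1 has 9, FZD6 has 7, and LRP5 and LRP6 have 23 each. The single-exon receptors all fell, and of the others only LGR5 and ROR1 did. The uncalled LGR4, FZD6, LRP5 and LRP6 all have several exons. A part of gene structure in the receptor results was not tested. Of the 50-base windows of the FZD1 transcript 0.467% also stood in another gene, all in FZD2. For FZD7 the share was 0.441%, again all in FZD2. For FZD2 it was 2.33%. The largest share, 6.77% for FZD8, was nearly all due to an annotated gene that the deposited table does not list, and the same held for the 2.51% of LGR5. In LGR4, FZD6 and ROR1 the share was 0. All these shares were taken over GENCODE 44 transcripts. For FZD1 (6894 bases) and FZD2 (3779 bases) these are longer than the deposited spans (4341 and 1983 bases), as also for FZD7 and FZD8. For these genes the shares are therefore not shares of the counted sequence.

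Promoter sequences, from 250 bases before the annotated start up to it, were taken from RefSeq (GRCh38.p14) for 5 of the 10 receptors. LGR5, FZD2, FZD6, FZD7 and LRP6 were not matched. The sequences of FZD1, FZD8 and ROR1 are shown because these transcripts fell, and that of LGR4 because its did not pass. They lie in GRCh38 as FZD1 at chr7:91264183-91264432 on the plus strand, FZD8 at chr10:35642297-35642546 on the minus strand, ROR1 at chr1:63773767-63774016 on the plus strand and LGR4 at chr11:27472791-27473040 on the minus strand. Each is written 5′ to 3′ along its gene, with CCAAT boxes (CCAAT, or ATTGG on the other strand) in capitals.
FZD1: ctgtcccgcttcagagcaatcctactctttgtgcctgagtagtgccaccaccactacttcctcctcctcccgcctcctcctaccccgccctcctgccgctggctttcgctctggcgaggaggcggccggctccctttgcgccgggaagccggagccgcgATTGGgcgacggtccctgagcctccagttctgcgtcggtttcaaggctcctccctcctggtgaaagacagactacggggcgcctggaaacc
FZD8: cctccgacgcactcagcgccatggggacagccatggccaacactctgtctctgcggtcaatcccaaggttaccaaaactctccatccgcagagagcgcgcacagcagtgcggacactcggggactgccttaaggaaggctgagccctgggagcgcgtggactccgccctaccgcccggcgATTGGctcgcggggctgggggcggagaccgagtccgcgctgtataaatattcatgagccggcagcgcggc
ROR1: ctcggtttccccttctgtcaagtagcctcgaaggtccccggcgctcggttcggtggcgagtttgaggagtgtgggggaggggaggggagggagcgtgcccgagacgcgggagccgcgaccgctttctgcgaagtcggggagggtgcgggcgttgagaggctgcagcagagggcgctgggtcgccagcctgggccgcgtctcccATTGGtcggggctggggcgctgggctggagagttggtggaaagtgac
LGR4: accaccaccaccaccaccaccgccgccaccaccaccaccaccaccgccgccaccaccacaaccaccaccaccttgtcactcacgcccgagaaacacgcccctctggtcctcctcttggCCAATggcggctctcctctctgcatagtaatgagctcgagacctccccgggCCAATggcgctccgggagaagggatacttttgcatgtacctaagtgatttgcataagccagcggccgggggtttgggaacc
FZD1, FZD8 and ROR1 each had 1 ATTGG in this window, starting 91, 70 and 47 bases before the start, and LGR4 had 2 CCAAT, so the box was present in receptors that fell and in one that was not called. LRP5 had none. This motif was chosen after the sequences were seen, and 32% of all 35116 RefSeq promoter windows hold it. On both strands, the TCF/LEF motif CTTTGAT, the AP-1 motifs TGACTCA and TGAGTCA and the ETS motif CCGGAAGT had 0 matches in all 5 windows, against 2.26%, 4.2% and 3.42% of all windows. A window without these letters says nothing about binding of the factors.

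The rest of the Wnt pathway was followed with lists of ligands, antagonists, signaling components and target genes. These lists too were chosen with earlier results of these data known, so shares set beside all tested genes are descriptions. Of 131 further pathway genes 84 were tested, and 21 were lower, 4 were higher and 59 did not pass, with a median log2 fold change of -0.10. The share of lower genes was 25%, set against 11.3% over all tested genes. These counts depended on the RETi libraries. Both were smaller without RETi replicate 1 or RETi replicate 2, as were the counts over all tested genes. Without RETi + FGFRi replicate 2, 22 were lower and 7 higher. Of the 15 other Wnt receptors and co-receptors listed, 9 were tested and 0 were called (edgeR; 1 was lower and 0 higher at an unadjusted p under 0.05). DESeq2 called 0 of them, and without RETi + FGFRi replicate 1 edgeR called PTK7 lower (log2 fold change -0.25, adjusted p = 0.025).

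**Figure D4:**
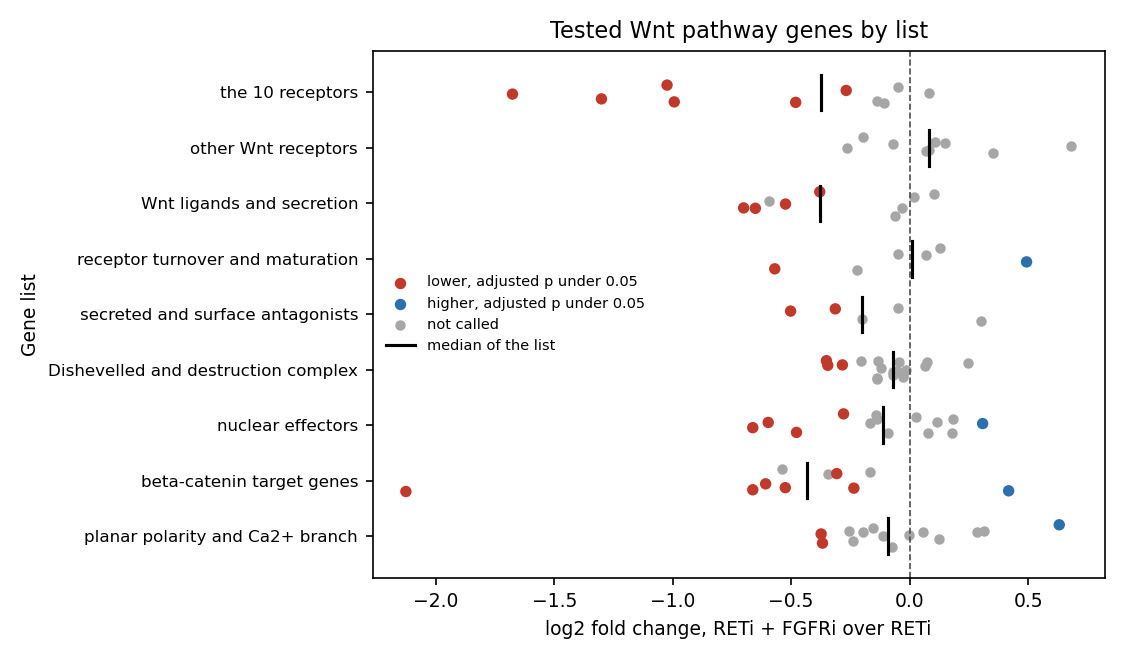
Log2 fold change, RETi + FGFRi over RETi, of every tested gene of the 8 Wnt pathway lists with tested genes and of the 10 receptors; red points are lower and blue points higher at an adjusted p under 0.05, grey points were not called, and black bars are list medians. The median was -0.37 for the 10 receptors, -0.38 for Wnt ligands and secretion, -0.44 for β-catenin target genes and 0.083 for the other Wnt receptors.

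On the ligand side, 4 of 9 tested genes of Wnt ligands and their secretion fell (44.4%, against 11.3% of all tested genes). WNT7B had 690 and 720 reads after RETi + FGFRi, against 1127 and 1309 reads after RETi (log2 fold change -0.70, SE 0.089, adjusted p = 0.00070, edgeR), and WNT5B had 634 and 742 reads, against 1074 and 1220 reads (-0.65, adjusted p = 0.0010). WNT5A, a ligand of ROR1, had a log2 fold change of -0.38 (adjusted p = 0.012). PORCN, which encodes the acyltransferase that lipid-modifies Wnt proteins, had one of -0.52 (adjusted p = 0.012). The Wnt carrier gene WLS was not called. Without RETi replicate 2 the calls of WNT5A (adjusted p = 0.077) and PORCN (adjusted p = 0.10) were lost, and the 4 genes became 2. Leaving out RETi + FGFRi replicate 2 let 2 ligand genes pass as higher. The 4 R-spondin genes, which encode the ligands of LGR4 and LGR5, had at most 7 reads in a library and were not tested.

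Of 6 tested genes of receptor turnover and maturation SHISA2 fell and TMEM59 rose. Each direction was 16.7% of the list, near the 11.3% lower and 12.8% higher of all tested genes. SHISA2, whose frog relative holds Frizzled and FGF receptors back in the endoplasmic reticulum, had 1216 and 1431 reads after RETi + FGFRi, against 1985 and 2183 reads after RETi (log2 fold change -0.57, adjusted p = 0.0012, edgeR). TMEM59, whose protein promotes the assembly of Frizzled and LRP complexes, had a log2 fold change of 0.49 (adjusted p = 0.0030). The ubiquitin ligase gene ZNRF3 had 429 and 449 reads after RETi + FGFRi, against 525 and 564 reads after RETi, and did not pass (log2 fold change -0.22, adjusted p = 0.10). RNF43 had at most 2 reads. Of 5 tested genes on the antagonist list DKK3 (-0.50, adjusted p = 0.0013, edgeR) and IGFBP4 (-0.31, adjusted p = 0.019) fell. That was 40% of the list, against 11.3% of all tested genes. The IGFBP4 call was lost without RETi replicate 1 or RETi replicate 2, with a log2 fold change of -0.31 in both runs.

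Inside the cell 3 of 18 genes of Dishevelled and the destruction complex fell, a share of 16.7% that was near the 11.3% of all tested genes. CTNNB1, the β-catenin gene, had 10580 and 11079 reads after RETi + FGFRi, against 14761 and 14589 reads after RETi (log2 fold change -0.35, adjusted p = 0.010, edgeR). The scaffold gene AXIN1 (-0.35) and the kinase gene CSNK1G2 (-0.28) also fell, and DVL1, DVL2 and DVL3 were not called. None of these 3 calls held without RETi replicate 1 (adjusted p = 0.11 for CTNNB1, 0.055 for AXIN1 and 0.089 for CSNK1G2) or without RETi replicate 2 (0.071, 0.071 and 0.12). Of 14 nuclear effectors 4 fell (28.6%, against 11.3% of all tested genes) and 1 rose (7.14%, against 12.8%). TCF7L1 (log2 fold change -0.60, adjusted p = 0.0023), TCF7 (-0.66, adjusted p = 0.0035) and CTNNBIP1 (-0.48, adjusted p = 0.0083), an inhibitor of the β-catenin and TCF contact, fell. The CTNNBIP1 value was -0.31 without RETi + FGFRi replicate 1 and -0.66 without RETi + FGFRi replicate 2. PYGO1, which encodes a co-activator, rose (0.31, adjusted p = 0.020), but not with DESeq2 (0.060) or without RETi replicate 1 (0.11) or RETi replicate 2 (0.10). TCF7L2 and LEF1 were not called.

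Of 10 tested β-catenin target genes 6 fell and 1 rose, and 3 fell without RETi replicate 1 or RETi replicate 2. The lower share was 60%, against 11.3% of all tested genes, and the gene that rose was EPHB2 (log2 fold change 0.42, adjusted p = 0.012, edgeR). EPHB2 was not called when RETi replicate 1 was left out. NKD1 and ASCL2 had 0 reads in all 4 libraries, and SP5 had at most 2 reads. β-catenin activity was not measured, and whether the falls on this list came through β-catenin was not tested. TCF7 is counted both here and among the nuclear effectors. CCND1, the cyclin D1 gene, had 420 and 498 reads after RETi + FGFRi, against 2106 and 2147 reads after RETi (log2 fold change -2.13, adjusted p = 5.8e-07, edgeR). CD44 (-0.61, adjusted p = 0.0011) and MYC (-0.31, adjusted p = 0.012) fell as well, and the MYC call was lost without RETi replicate 1 (0.060) or RETi replicate 2 (0.098). AXIN2, the target most often read as a measure of β-catenin activity and named here after its values were seen, had 63 and 58 reads after RETi + FGFRi and 97 and 90 reads after RETi. With a log2 fold change of -0.54 (95% interval -0.96 to -0.12) it missed the threshold (adjusted p = 0.064, edgeR). Its groups did not overlap, with RETi + FGFRi lower, as was so for 33.4% of all tested genes. In the β-catenin-independent branch 2 of 14 genes fell (14.3%, near the 11.3% of all tested genes), PRICKLE1 (-0.37) and NFATC1 (-0.37), and CELSR2, an atypical cadherin gene, rose (0.63, adjusted p = 0.0028). Without RETi replicate 2 the calls of PRICKLE1 (0.080) and NFATC1 (0.12) were lost, and without RETi + FGFRi replicate 2 a further gene of this branch rose and another fell.

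The profiles nearest to LGR5 and FZD8 were sought among all tested genes with a mean of at least 50 reads. Such a search always returns the closest genes, and no background distance was computed, so the names are descriptions only. By the distance of log2 CPM centred on each gene, the nearest to LGR5 were RRM2, with 67 and 66 reads after RETi + FGFRi and 173 and 189 reads after RETi, and PADI3. The nearest to FZD8 were UBASH3B, with 930 and 981 reads after RETi + FGFRi and 2937 and 3118 reads after RETi, and TMEM233. The distances were 0.112 and 0.123 for LGR5 and 0.129 and 0.143 for FZD8, over 4 libraries only.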

How the data were processed

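RNA of TPC1 cells was sequenced from 2 libraries per group. Per the labels and processing notes, the authors aligned 50-base reads with STAR (2.3) to hg19 and deposited whole-number read counts per gene for each library, beside a DESeq2-normalized signal that was only inspected here. Their fold change and p-value columns for the same comparison were not used. The published methods name a paired-end run and another STAR version. Whether counting used strand is not stated by labels or methods. Of 20372 genes, 12794 passed filterByExpr (minimum count 10). The deposited counts were scaled by TMM and tested with the edgeR (4.0.16, R 4.3.3) quasi-likelihood test, two-sided, with Benjamini-Hochberg adjustment over all 12794 genes and calls at an adjusted p under 0.05. Intervals (95%) used the SE and the residual (2) and prior (8.96) degrees of freedom. Depth was 24695040 to 27457040 reads per library.

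The 10 receptors and the pathway lists were chosen with earlier results of these data known. From each list the called genes were named, up to the 4 with the smallest p, and EPHB2 was added as the target gene that rose. Uncalled relatives of the receptors, and other uncalled genes, were named after their values were seen. For LGR5 and FZD8 the 2 nearest profiles with a mean of at least 50 reads were named. Alternatives were other scalings (DESeq2 size factors, library totals, upper quartile), no filter, a stricter filter, DESeq2 (1.42.0), limma-voom (limma 3.58.1), the replicate number as a block, and leaving out each library. Lengths and shared windows come from GENCODE 44, and promoters from RefSeq GRCh38.p14, whose coordinates were not mixed with those of hg19.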

Additional observations from a re-analysis of the deposited data

How the results depend on the processing

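The receptor count stayed at 6 lower except for 5 with DESeq2 and without RETi + FGFRi replicate 1, RETi replicate 1 or RETi replicate 2 (range 5 to 6 when leaving out a library), and 4 with the fold and unadjusted p limits. It was 0 higher in all 12 alternative runs. LGR5 (-1.41 to -1.18), FZD1 (-1.11 to -0.94), FZD7 (-0.51 to -0.46), FZD8 (-1.75 to -1.59) and ROR1 (-1.06 to -0.92) were called in all 12 alternative runs, but FZD7 missed the fold limit of -0.5. LRP6 ranged from -0.15 to 0.052 when a library was left out, and changed sign to 0.052 without RETi + FGFRi replicate 2 and to 0.040 without RETi replicate 2, never near the threshold, and the cause was not tested. Leaving out a library gave 553 to 1503 lower and 691 to 1942 higher genes of all those tested, and 9 to 22 lower and 2 to 7 higher other Wnt genes, where fewer samples enter the fit and the lone library of a group is assumed to vary like the other group. The fold and unadjusted p limits gave 388 lower genes. DESeq2 called 1022 lower and 1258 higher genes. The labels do not say that replicate numbers mark pairs, and the correlation of the replicate differences was 0.020. With the replicate block 1738 genes were lower, 2041 higher, and 6 receptors lower, and AXIN2 passed (adjusted p = 0.047). With 2 libraries per group small changes such as those of LGR4, FZD6, LRP5 and LRP6 could not be resolved.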

Other observations

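Some Wnt pathway genes had too few reads for the main test and are given as values, chosen after these were seen. WNT8B had 13 and 10 reads in the RETi + FGFRi libraries, against 2 and 2 reads in the RETi libraries, and WNT6 had 15 and 9 reads, against 2 and 5 reads. The antagonist gene SFRP4 had 1 and 3 reads after RETi + FGFRi, against 10 and 8 reads after RETi, and TRABD2B had 1 and 1 reads, against 6 and 6 reads. Without the filter on low counts the adjusted p of edgeR was 0.030 for WNT8B, 0.083 for WNT6, 0.10 for SFRP4 and 0.13 for TRABD2B. The groups of each of these genes did not overlap, but 33.4% of all tested genes did not overlap with RETi + FGFRi lower, and 31.7% with it higher. LGR6, the third R-spondin receptor gene, had 0 and 0 reads after RETi + FGFRi and 0 and 2 reads after RETi.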
